A study of Mus musculus with 7 samples.

Results

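The transcription factors that set and hold the hepatocyte programme were examined in the livers of mice with and without Rbpj. The set holds 9 genes: Hnf4a, the forkhead factors Foxa1, Foxa2 and Foxa3, the C/EBP factors Cebpa and Cebpb, Prox1, Nr5a2 and Gata4. Its members were chosen by name, and every probe that carried one of these names on the array was used, which gave 11 probes. They stand among 18755 genes that could be tested, of 35666 genes named on the array.

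RNA of whole liver was hybridised with 1 dye, 1 array for each of 7 C57BL/6J mice at the age of 4 weeks. All animals carried floxed Rbpj alleles, and RBPJ is the DNA-binding factor through which Notch receptors act on their target genes. The 4 Rbpj+/+ mice (labelled Rbpj +/+_991, Rbpj +/+_1024, Rbpj +/+_1155 and Rbpj +/+_1156) lacked AlfpCre. The 3 Rbpj-/- mice (labelled Rbpj -/-_2866, Rbpj -/-_N3 and Rbpj -/-_N5, the latter here N3 and N5) carried AlfpCre. The paper reports cholestasis in Rbpj-/- mice of this age and none in Rbpj+/+ mice. The labels do not give its degree in single animals. AlfpCre is driven by albumin and alpha-fetoprotein regulatory sequences and acts in the embryonic liver, so that hepatocytes and bile duct cells both derive from recombined precursors. The paper also describes hepatic necrosis, immune cells at the lesions, fibrosis and low body weight in Rbpj-/- mice of this age. Genotype, the presence of Cre, cholestasis and these changes therefore cannot be told apart in these samples. Nor can the row of the slide, which coincided with the genotype.

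Hepatocyte identity rests on a small network of transcription factors that bind one another's regulatory regions and jointly occupy the enhancers of liver genes. FOXA proteins open chromatin for other factors, HNF4A is the nuclear receptor that most hepatocyte enhancers depend on, and C/EBPalpha favours the metabolic programme of the resting adult cell. C/EBPbeta takes a larger part during the acute phase response and regeneration. PROX1 and NR5A2 temper or extend the bile acid and lipid programme, and GATA4 acts from the earliest liver bud onwards. Several members are not confined to hepatocytes. For example, FOXA1 and FOXA2 are also made in bile duct cells, and PROX1 and GATA4 are made in endothelial cell types.

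The probes are 60 bases long, and the first 30 bases are shown for those on which the results turn, in the 5′ to 3′ direction and without capitals because no part of them was singled out. Their positions are those the array design gives on mm9, and which exon or UTR each one lies in was not analysed here.
Hnf4a: ggggtaaaaaagagaaaaagccctcaaaaa
Foxa1: gcatggtttactccttttctttacagccga
Cebpa: ttttgttttggttttgctctgattcttgcc
Cebpb: agaggcgtatgtatattttgagaacctttt
Nr5a2 brighter probe: atgcaaagacagtgattctgcatatggcct
Nr5a2 dimmer probe: gatggagaccaataccacagcagaataaaa
The Hnf4a probe lies at chr2:163398548-163398607 on the plus strand and the Foxa1 probe at chr12:58641764-58641823 on the minus strand. The Cebpa probe lies at chr7:35906517-35906576 and the Cebpb probe at chr2:167515828-167515887, both on the plus strand. The brighter Nr5a2 probe at chr1:138740903-138740962 and the dimmer one at chr1:138741712-138741771 are both on the minus strand, share no bases, and start 809 bases apart. The Foxa2 probes start 55 bases apart and share 5 bases, so they read nearly adjacent stretches of the same RNA.

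All 11 probes were well above background on all 7 arrays. Values are log2 intensities relative to the 75th percentile of each array, so that a difference of 1 is a doubling, and levels are compared between animals for each probe and not between genes. A gene was called changed at an adjusted p below 0.1 (limma, Benjamini-Hochberg over 24548 probes), and a gene with several probes was represented by the brightest. By this measure Foxa1, Cebpa and Nr5a2 were lower in Rbpj-/- liver, and the other 6 members did not pass the test. The 3 of 9 genes compare with 34.2% of all genes called in either direction, with 19.5% called lower and 14.6% called higher. Among probes, 3 of 11 were called beside 33.6% of all tested probes. The genotypes did not overlap for 3 of 9 members (Hnf4a, Foxa1 and Nr5a2), beside 36.6% of all genes. Of the 9 differences 7 were negative and 2 positive, with a median of -0.32, while 57.8% of all genes had a negative difference and their median was -0.13. The share of members called in either direction was thus near that of all genes.

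**Figure D1:**
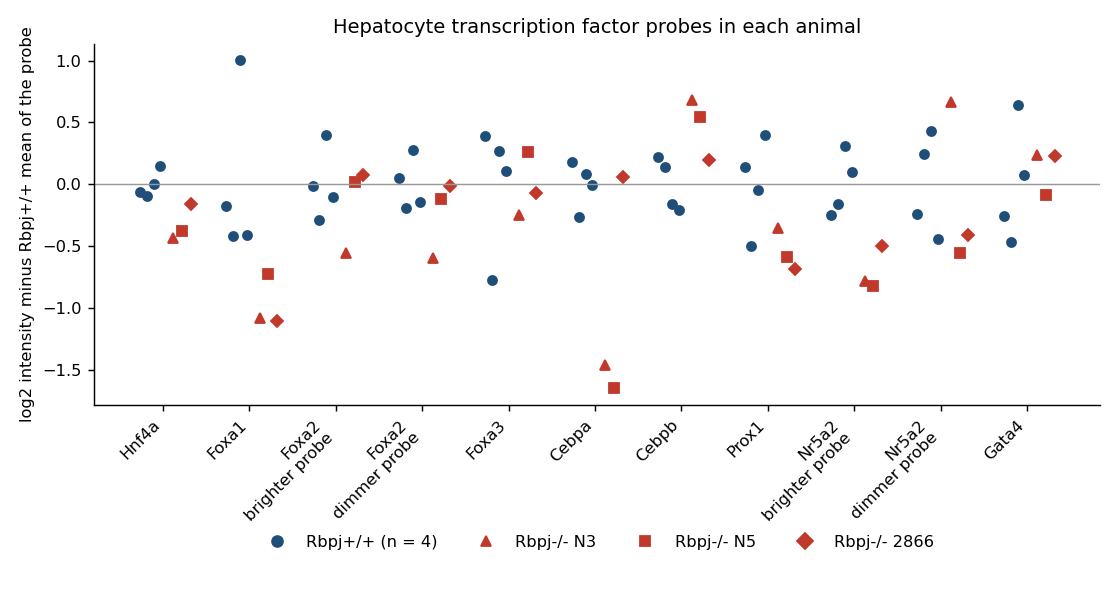
Log2 intensity of each of the 11 probes, relative to the mean of the 4 Rbpj+/+ animals for that probe; each point is 1 animal, blue circles are Rbpj+/+ and red symbols are the 3 Rbpj-/- animals. All 3 Rbpj-/- animals lie below the Rbpj+/+ animals for Hnf4a, Foxa1 and the brighter Nr5a2 probe, while for Cebpa Rbpj -/-_2866 lies within the Rbpj+/+ range and N3 and N5 lie far below it.

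The targeted gene was lower in each Rbpj-/- liver. The mean log2 level of Rbpj was 0.60 ± 0.34 (SD, n = 4) with and -0.54 ± 0.22 (SD, n = 3) without intact alleles, a difference of -1.13 (SE 0.24, limma adjusted p = 0.0115). Whether its probe lies in the deleted stretch is not given in the sources used here. Hepatocyte markers, 10 of 10, were well above background on all 7 arrays. Whole liver mixes cell types, and fewer hepatocytes and less RNA per hepatocyte cannot be told apart here.

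Marker lists moved with the genotype, and their part in the differences of the members was not tested. For comparison with the counts below, 19.5% of all genes were called lower and 14.6% higher. Of 10 hepatocyte markers 5 were lower (Alb, Ttr, Apob, Trf and Fgb) and none was higher, and their summed level relative to the 75th percentile spanned 3588 to 5649 in Rbpj+/+ and 2897 to 3419 in Rbpj-/- mice. With quantile normalization 2 of the list were lower and 1 was higher. Macrophage markers were higher for 6 of 8 and lower for 1, with sums of 93.9 to 117 against 290 to 401. Some markers of the next lists were well above background on all arrays of only 1 genotype, the one where they are brighter, so each count is also given for detection on all 7 arrays. Stellate cell and fibroblast markers were higher for 7 of 10 (6 with detection on all 7 arrays, which leaves out Timp1), with sums of 133 to 204 against 255 to 323. Endothelial markers, which bear on Prox1 and Gata4, were higher for 4 of 8 and lower for 1, with sums of 52.5 to 75.8 against 83.1 to 129. The 4 became 2 (Cdh5 and Clec4g) with detection on all 7 arrays, which leaves out Tek and Emcn, and the count was also 2 when Rbpj +/+_991, N3, N5 or Rbpj -/-_2866 was left out. Emcn turned negative with normexp background correction (-0.10). Neutrophil markers were higher for 3 of 7 (2 with detection on all 7 arrays, which leaves out Retnlg), with sums of 6.25 to 25.0 against 33.7 to 70.7, and Elane was lower (-0.50), a call lost when any 1 animal other than Rbpj -/-_2866 was left out, with quantile normalization, with the percentile over detected probes and with normexp. Lymphocyte markers were lower for 5 of 8 (2 with detection on all 7 arrays) and higher for 1, with sums of 12.5 to 16.9 against 8.56 to 11.5. Of the 10 bile duct markers, which bear on Foxa1 and Foxa2, 6 were bright enough to be tested, Epcam, Cldn4 and Muc1 not among them, 2 of the 6 were higher (Spp1, and Sox9 with a call lost when Rbpj +/+_1155, Rbpj +/+_1156, Rbpj +/+_1024, N3 or N5 was left out), and the sum spanned 3.69 to 4.30 in Rbpj+/+ mice. It was 11.5 in N3, 9.83 in N5 and 4.74 in Rbpj -/-_2866.

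Hnf4a showed a small difference that did not pass the test. Its log2 level was 7.99 in Rbpj +/+_1155, 7.97 in Rbpj +/+_1156, 8.06 in Rbpj +/+_1024 and 8.21 in Rbpj +/+_991, beside 7.62 in N3, 7.68 in N5 and 7.90 in Rbpj -/-_2866. The values of the other genes are given in this order of animals. The genotypes did not overlap, and Rbpj -/-_2866 came closest to the Rbpj+/+ animals. The difference was -0.32 (SE 0.18, 95% confidence interval -0.72 to 0.08), with an exact two-sided permutation p of 0.0286, the smallest that 35 splits of 4 and 3 animals allow, and a limma adjusted p of 0.216. Before scaling, the intensities went the other way, with 15308 to 26121 in Rbpj+/+ and 26596 to 28210 in Rbpj-/- mice. The 75th percentile was also higher on the Rbpj-/- arrays. The direction depended on the scaling, since quantile normalization gave 0.04. Scaling acted in this way on other genes as bright as Hnf4a: the 375 genes within 0.5 of its mean log2 level had a median difference of -0.37 relative to the 75th percentile and of -0.02 after quantile normalization. The direction of Hnf4a was therefore not settled by these arrays.

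Of the forkhead factors only Foxa1 passed the test, and whether they differed from one another was not tested. FOXA1, which opens closed chromatin at liver enhancers, was represented by 1 probe. Its log2 level was 2.49, 2.24, 3.66 and 2.25 in the Rbpj+/+ animals and 1.58, 1.94 and 1.56 in N3, N5 and Rbpj -/-_2866. The genotypes did not overlap, and Rbpj +/+_1024 stood well above the other Rbpj+/+ animals. Before scaling, the intensities overlapped, with 356 to 727 in Rbpj+/+ and 348 to 498 in Rbpj-/- mice. The difference of -0.97 (SE 0.35, 95% confidence interval -1.76 to -0.17) left Foxa1 at 0.512-fold of its Rbpj+/+ level, with a limma adjusted p of 0.0766 and an exact two-sided permutation p of 0.0571. The direction held under all 18 alternatives, with differences between -1.11 and -0.63, and the call was lost when Rbpj +/+_1155 (limma adjusted p = 0.103), N3 (0.179), N5 (0.131) or Rbpj -/-_2866 (0.182) was left out. Without Rbpj +/+_1024, the high Rbpj+/+ animal, the difference shrank to -0.63 (limma adjusted p = 0.0944).

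Foxa2 and Foxa3 did not pass the test. Foxa2 encodes a forkhead factor with roles in bile acid handling and lipid metabolism, and its brighter probe read 4.23, 3.96, 4.65 and 4.15 in the Rbpj+/+ and 3.69, 4.27 and 4.32 in the Rbpj-/- animals on the log2 scale. N3 lay below all Rbpj+/+ animals while N5 and Rbpj -/-_2866 lay among them. The difference was -0.15 (SE 0.24, 95% confidence interval -0.70 to 0.40, limma adjusted p = 0.671), and it turned positive with normexp background correction (0.15) and without N3 (0.05). The dimmer probe gave -0.24 (SE 0.22, limma adjusted p = 0.445). Foxa3, a factor that supports gluconeogenic and lipid genes in the adult liver, read 3.05, 1.89, 2.93 and 2.77 in the Rbpj+/+ and 2.41, 2.92 and 2.59 in the Rbpj-/- animals. Its difference of -0.02 (SE 0.30, limma adjusted p = 0.971) had a 95% confidence interval of -0.70 to 0.66, which leaves room for a change of either sign, and its sign turned in 9 of 18 alternatives.

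Cebpa, the C/EBP factor of the resting hepatocyte, divided the Rbpj-/- animals. Its log2 level was 5.07, 4.63, 4.97 and 4.89 in the Rbpj+/+ animals, 3.43 in N3, 3.24 in N5 and 4.95 in Rbpj -/-_2866. N3 and N5 lay more than 1 log2 unit below every Rbpj+/+ animal, whereas Rbpj -/-_2866 lay within their range. The SD among the Rbpj-/- animals was 0.94, beside 0.19 among the Rbpj+/+ animals. Over all animals the difference was -1.01 (SE 0.39, 95% confidence interval -1.89 to -0.14, limma adjusted p = 0.0877, exact two-sided permutation p = 0.0857). The call was lost in 12 of 18 alternatives, among them quantile normalization (-0.90, limma adjusted p = 0.137) and leaving out Rbpj +/+_1155 (0.154), Rbpj +/+_1024 (0.174), Rbpj +/+_991 (0.146), N3 (0.249) or N5 (0.287). Without Rbpj -/-_2866 the difference was -1.55 (limma adjusted p = 0.00621).

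Cebpb, the C/EBP factor of the acute phase and of regenerating liver, had a positive difference that did not pass the test. Its log2 level was 5.99, 5.91, 5.61 and 5.56 in the Rbpj+/+ and 6.45, 6.32 and 5.96 in the Rbpj-/- animals. N3 and N5 lay above every Rbpj+/+ animal, and Rbpj -/-_2866 lay within their range. The difference was 0.47 (SE 0.21, 95% confidence interval 0.00 to 0.95, limma adjusted p = 0.130, exact two-sided permutation p = 0.0857). It was positive under all 18 alternatives, between 0.37 and 0.69, and passed the test with normexp background correction (limma adjusted p = 0.0409) and with array weights (0.0688).

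The same animals thus stood out for both C/EBP genes. The log2 level of Cebpb minus that of Cebpa, set to 0 at the Rbpj+/+ mean, was 0.04, 0.41, -0.24 and -0.21 in the Rbpj+/+ animals. It was 2.14 in N3 and 2.19 in N5, but 0.13 in Rbpj -/-_2866, so that the mean of 1.49 ± 1.17 (SD, n = 3) describes none of the Rbpj-/- animals. This balance was composed after the values of both genes had been seen and was not tested. Which cells of the liver made the RNA of either gene was not tested either. As given above, Rbpj -/-_2866 was also the Rbpj-/- animal with the lowest sum of bile duct markers, and its macrophage sum of 326 lay between those of N5 and N3.

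**Figure D2:**
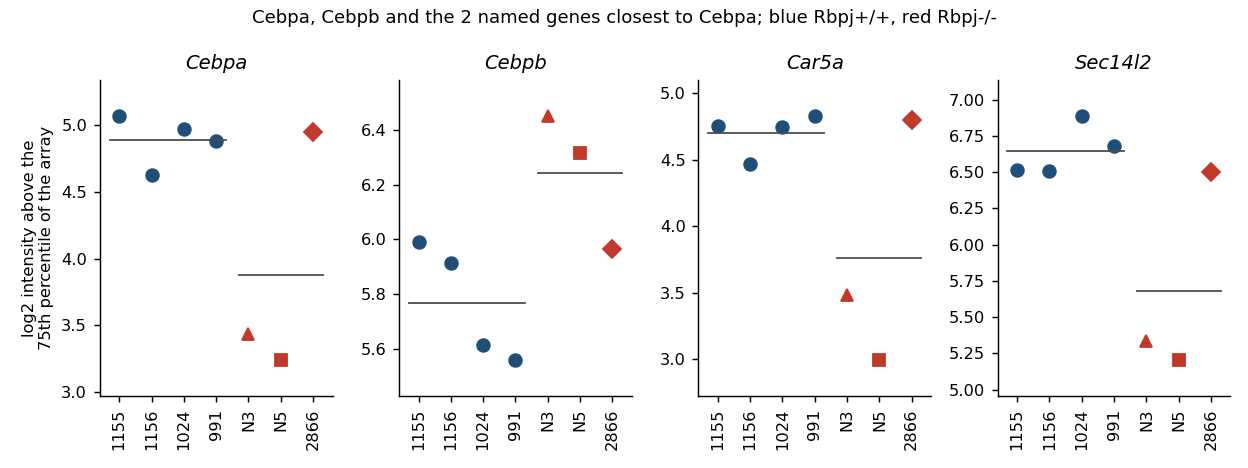
Log2 intensity above the 75th percentile of the array for Cebpa, Cebpb, Car5a and Sec14l2 in each animal (replicate names on the horizontal axis), with blue circles for Rbpj+/+, red symbols for Rbpj-/- and a line at each genotype's mean; the vertical axes differ and do not start at 0. In all 4 panels Rbpj -/-_2866 lies at or near the Rbpj+/+ animals, while N3 and N5 lie away from them.

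Of the genes that followed Cebpa most closely over the 7 arrays, the nearest was Car5a, a mitochondrial carbonic anhydrase of the liver, at a root mean square distance of 0.113 log2 units after centring. It read 4.76, 4.47, 4.75 and 4.83 in the Rbpj+/+ animals and 3.48, 3.0 and 4.80 in N3, N5 and Rbpj -/-_2866. Sec14l2, a lipid-binding protein, came next at 0.186, followed by the predicted gene Gm38733 at 0.195. Genes close to Hnf4a included Lpar6 (0.0517) and Mtmr14 (0.0559). Genes were compared here over 18727 candidates, so close matches are found for any profile of 7 values.

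Prox1, a homeobox factor that restrains bile acid and lipid genes in hepatocytes and marks lymphatic endothelium, had a negative difference short of the threshold. Its log2 level was 1.21, 0.58, 1.03 and 1.47 in the Rbpj+/+ and 0.72, 0.48 and 0.39 in the Rbpj-/- animals. N5 and Rbpj -/-_2866 lay below all Rbpj+/+ animals and N3 lay above Rbpj +/+_1156. The difference was -0.54 (SE 0.24, 95% confidence interval -1.09 to 0.00, limma adjusted p = 0.133). It was negative under all 18 alternatives and passed the test without Rbpj +/+_1156 (-0.71, limma adjusted p = 0.0371), with array weights (0.0284) and without Rbpj +/+_1156 and N3 together (0.050). Its closest neighbours over the arrays were a transcript known only by its identifier (0.0664), Atp23 (0.110) and Gm10371 (0.112).

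Nr5a2, the nuclear receptor LRH-1 that drives bile acid and cholesterol genes, passed the test by its brighter probe only. The brighter probe read 3.54, 3.62, 4.09 and 3.88 in the Rbpj+/+ and 3.0, 2.96 and 3.28 in the Rbpj-/- animals on the log2 scale. All Rbpj-/- animals lay below all Rbpj+/+ animals. The difference of -0.70 (SE 0.21, 95% confidence interval -1.17 to -0.23) amounted to a fall of 38.4%, with a limma adjusted p of 0.0408 and an exact two-sided permutation p of 0.0286. Before scaling, the same probe gave intensities of 977 to 1192 in Rbpj+/+ and 1012 to 1149 in Rbpj-/- mice, which overlap, while the 75th percentile was 57.5 to 103 on the Rbpj+/+ and 118 to 143 on the Rbpj-/- arrays. Quantile normalization gave -0.61 and kept the call. It also makes the 75th percentile equal on all arrays, so it is no separate check on that scaling. The call was lost without Rbpj +/+_1024 (-0.60, limma adjusted p = 0.108), N3 (-0.66, 0.116) or N5 (-0.64, 0.139).

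The dimmer Nr5a2 probe gave a smaller difference that did not pass the test. It read -1.17, -0.68, -0.49 and -1.36 in the Rbpj+/+ and -0.26, -1.47 and -1.33 in the Rbpj-/- animals. The genotypes overlapped, and N3, whose dim probes were brighter as a whole, had the highest value. The difference was -0.10 (SE 0.34, 95% confidence interval -0.87 to 0.68, limma adjusted p = 0.854), and its sign turned in 5 of 17 alternatives, quantile normalization among them (0.01). Without N3 it was -0.48 (limma adjusted p = 0.301). The interval includes the -0.70 of the brighter probe, so the probes are not shown to differ. The mean over both probes gave -0.40 (limma adjusted p = 0.230), so the call on Nr5a2 belongs to 1 of its probes. The genes closest to the brighter probe were Serpina1c (0.0573), Cyp3a11 (0.0595) and Fabp1 (0.0665), and the first of these, a protease inhibitor, and the second, a drug-metabolising enzyme, belong to families of near-identical genes that one probe may not separate.

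Gata4, a zinc-finger factor of hepatocytes, stellate cells and sinusoidal endothelium, differed by less than the spread between animals. Its log2 level was 1.40, 1.18, 2.29 and 1.73 in the Rbpj+/+ and 1.89, 1.57 and 1.88 in the Rbpj-/- animals. The Rbpj-/- values all lay inside the Rbpj+/+ range. The difference was 0.13 (SE 0.28, 95% confidence interval -0.50 to 0.76, limma adjusted p = 0.764), and its sign turned in 3 of 18 alternatives.

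**Figure D3:**
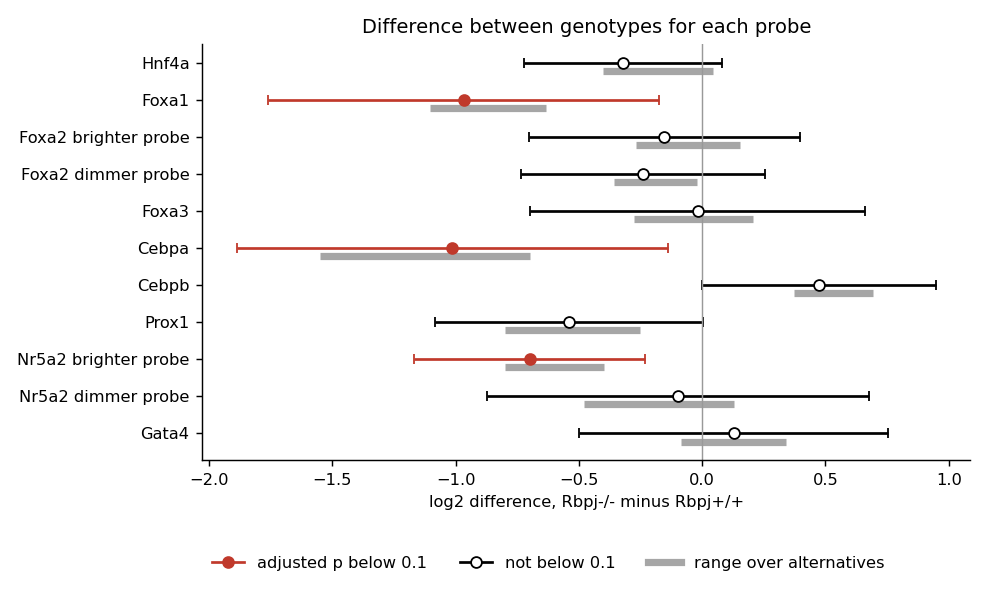
Log2 difference, Rbpj-/- minus Rbpj+/+, of each probe with its 95% confidence interval (limma, 4 and 3 animals); red points passed an adjusted p of 0.1, open points did not, and the grey bar below each point is the range of the difference over the alternative settings. The intervals of Foxa1, Cebpa and the brighter Nr5a2 probe lie below 0, and the grey bars of Hnf4a, Foxa2, Foxa3, Gata4 and the dimmer Nr5a2 probe cross it.

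Seen by animal, 5 of 9 members lay below the lowest Rbpj+/+ value in N3, 5 in N5 and 4 in Rbpj -/-_2866. Of all 18755 tested genes 39.4% did so in N3, 35.8% in N5 and 33.0% in Rbpj -/-_2866. The median of the 9 members, each relative to its Rbpj+/+ mean, was -0.43 in N3, -0.38 in N5 and -0.07 in Rbpj -/-_2866, beside -0.16, -0.08 and -0.09 over all tested genes. The same median of the members was -0.02, -0.29, 0.27 and 0.08 in the Rbpj+/+ animals, in the order above, so that Rbpj -/-_2866 lay within the range of the Rbpj+/+ animals.

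RefSeq promoter windows, from 250 bases before to 50 bases after a start site on GRCm38.p6, were found for 8 of the members (13 windows), and each was searched on both strands for a motif of RBPJ and of the HNF4, FOXA, C/EBP, GATA and NR5A2 families. No motif of PROX1 was searched. No 2 matches in these windows overlapped. GTGGGAA, the RBPJ motif, was in none of the 13 windows and in 6.38% of all 32851 windows. CAAAGTCCA (HNF4), TTGCGNAA (C/EBP) and TCAAGGTCA (NR5A2) were in none of the 13 and in 0.475%, 0.798% and 0.423% of all windows. TGTTTAC, the FOXA motif, was in the Foxa1 window and in 3.65% of all windows. AGATAA, the GATA motif, was in a window of Hnf4a, Foxa2 and Nr5a2, and in 11.2% of all windows. A match is a run of letters and does not show that a factor binds there.

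The upstream 250 bases are shown for Foxa1 and Nr5a2, which were lower in Rbpj-/- liver and whose windows hold a match to a factor of the set. Capitals mark the FOXA motif of Foxa1 at -141 to -135 and the GATA motifs of Nr5a2 at -217 to -212 and -200 to -195, counted from the start site, all of them read on the opposite strand. The Foxa1 window is chr12:57546112-57546361 and the Nr5a2 window chr1:136960449-136960698, both on the minus strand of GRCm38.p6.
Foxa1: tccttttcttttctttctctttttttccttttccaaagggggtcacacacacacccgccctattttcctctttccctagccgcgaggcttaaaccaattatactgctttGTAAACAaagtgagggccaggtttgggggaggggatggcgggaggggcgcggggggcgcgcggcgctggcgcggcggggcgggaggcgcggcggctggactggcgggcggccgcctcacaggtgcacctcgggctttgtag
Nr5a2: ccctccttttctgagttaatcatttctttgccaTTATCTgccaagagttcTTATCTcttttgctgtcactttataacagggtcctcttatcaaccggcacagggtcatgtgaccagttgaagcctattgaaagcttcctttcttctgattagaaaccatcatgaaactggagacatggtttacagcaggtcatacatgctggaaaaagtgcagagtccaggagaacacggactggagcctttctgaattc

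Other transcription factors of the hepatocyte network included genes with larger differences than those of the members. Of 20 listed factors 8 were lower, 2 were higher and 10 did not pass the test, with a median difference of -0.50 beside -0.13 over all genes. The share called was 50%, beside 34.2% of all genes. The largest falls among those that passed were those of Tbx3, a factor of the pericentral zone, with -1.88 (SE 0.30, limma adjusted p = 0.00428), and of Nr1h4, the bile acid receptor FXR, with -1.52 (SE 0.23, limma adjusted p = 0.00321). Nfia (-1.46), Ppara, the fatty acid receptor (-1.40), Mlxipl, the carbohydrate-responsive factor ChREBP (-1.29), Nr0b2, the bile acid-induced repressor SHP (-0.92), Creb3l3 (-0.85) and Rxra, the partner of many nuclear receptors (-0.53), were lower as well. Cebpd, an acute phase C/EBP factor, was higher by 2.51 (SE 0.46, limma adjusted p = 0.00715), and Gata6, which endothelial and mesenchymal cells also make, by 1.33 (SE 0.25, limma adjusted p = 0.00800). With quantile normalization the counts were again 8 lower and 2 higher, and the calls of Nr0b2 and Rxra were each lost without Rbpj +/+_1024, Rbpj +/+_991 or N5, that of Nr0b2 also without Rbpj -/-_2866 and that of Rxra also without N3. Onecut1, which is also needed for bile duct formation, gave -2.08 (SE 0.86, limma adjusted p = 0.110), with an SD of 1.85 among the Rbpj-/- animals.

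Of 10 cofactors and antagonists, 1 was higher, 2 were lower and 7 did not pass. The 30% called were near the 34.2% of all genes. Nrip1, a nuclear receptor corepressor, was higher by 0.70 (SE 0.19, limma adjusted p = 0.0305), and Cebpz was lower, with a difference of -0.73 (SE 0.21, limma adjusted p = 0.0393). Zfpm1, the GATA partner FOG1, was lower as well (-0.52, limma adjusted p = 0.0737). The call of Nrip1 was lost without N5, that of Cebpz without Rbpj +/+_1024 or Rbpj -/-_2866, and that of Zfpm1 without any 1 of the animals other than Rbpj +/+_1156.

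Known target genes of HNF4A went both ways. Of 20 listed targets 9 were lower, 3 were higher and 8 did not pass the test, with a median difference of -0.56. These calls were 60% of the list, beside 34.2% of all genes. The lower genes encode apolipoproteins (Apob -0.97, Apoc3 -0.92, Apoa2 -0.74), the bile acid importer Slc10a1 (-0.90), the urea cycle enzyme Otc (-0.97), the thyroid hormone carrier Ttr (-0.77), the bile acid ligase Slc27a5 (-0.64) and the clotting factors F10 (-0.60) and F12 (-0.55). Cyp7a1, the rate-limiting enzyme of bile acid synthesis, was higher by 2.02 (SE 0.53, limma adjusted p = 0.0265), as were Apoa4 (1.40) and Apoc2 (0.72). The count of lower targets depended on the scaling: it was 4 with quantile normalization, under which Apoa2 turned to 0.03. It was 5 without Rbpj +/+_1024, without Rbpj +/+_991, without N3 and without N5, and F10, F12, Otc and Slc27a5 lost their calls in each of these. Apoa4 and Apoc2 lost theirs without N5 or Rbpj -/-_2866.

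Targets of the forkhead factors were similarly divided, with 4 of 10 lower, 2 higher and a median of 0.04. Of this list 60% were called, beside 34.2% of all genes. Afp, the fetal counterpart of albumin, was higher by 2.90 (SE 0.34, limma adjusted p = 0.00128), and Igfbp1, a binding protein of insulin-like growth factors, by 2.0 (SE 0.30, limma adjusted p = 0.00322). The lower genes included Alb (-0.78), Ttr (-0.77) and Trf (-0.63). With quantile normalization 2 were lower and 4 higher, and Trf lost its call without Rbpj +/+_1024, N3 or N5.

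The C/EBP targets were set side by side. Of 10 C/EBPalpha targets 3 were lower (among them Alb, -0.78, and Gys2, the liver glycogen synthase, -0.65) and none was higher, with a median of 0.05. The 3 were 30% of the list, near the 34.2% of all genes. None of these 3 was called lower with quantile normalization, which called 3 of the list higher. The counts of lower genes were 1 without Rbpj +/+_1024, 1 without N3 and 2 without N5. Of 10 acute phase genes with C/EBPbeta sites 4 were higher and 2 lower, with a median of 1.45. Together these calls made up 60%, beside 34.2% over all genes. Lcn2, an iron-siderophore-binding protein of inflammation that neutrophils also make, was higher by 5.28 (SE 0.94, limma adjusted p = 0.00643), followed by Saa1 (2.64), Orm2 (1.64) and Orm1 (1.41), and the Saa and Orm genes have near-identical copies. The call of Saa1 was lost when any animal other than Rbpj +/+_1155 was left out, and that of Hp without Rbpj +/+_1024, Rbpj +/+_991, N3 or N5. The fibrinogen chain Fgb (-0.69) and haptoglobin Hp (-0.58) were lower relative to the 75th percentile, and both turned positive with quantile normalization (0.08 and 0.03).

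Of 8 NR5A2 targets 2 were higher, 1 was lower and 5 did not pass, with a median of -0.03. The 37.5% called were near the 34.2% of all genes. The higher genes were Cyp7a1 (2.02), named above, and Apom, an apolipoprotein of high-density lipoprotein, with 0.88 (SE 0.32, limma adjusted p = 0.0815), and the lower one was Nr0b2 (-0.92). Apom lost its call without Rbpj +/+_1156, Rbpj +/+_1024, N3, N5 or Rbpj -/-_2866. Cyp8b1, the sterol 12-alpha-hydroxylase, gave -2.14 (SE 0.96, limma adjusted p = 0.136). Its SD was 2.32 among the Rbpj-/- animals.

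**Figure D4:**
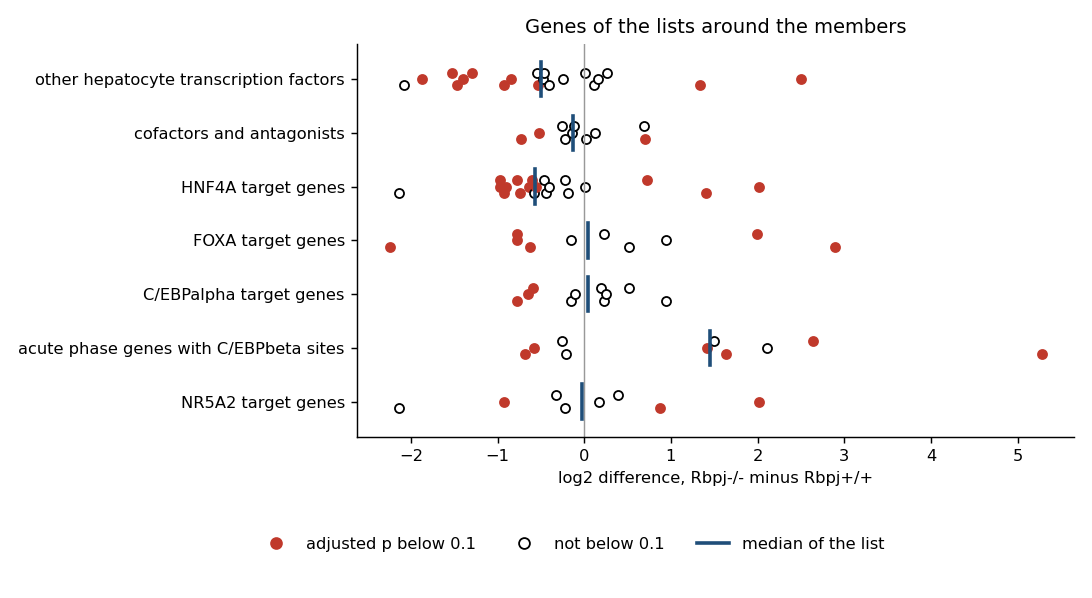
Log2 difference, Rbpj-/- minus Rbpj+/+, of each tested gene in 7 lists; red points passed an adjusted p of 0.1 (limma), open points did not, the blue bar is the median of the list and vertical offsets within a list carry no meaning. Acute phase genes have the highest median (1.45) and HNF4A targets the lowest (-0.56), while each list except the C/EBPalpha targets holds called genes on both sides of 0.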

How the data were processed

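Feature Extraction 10.7.3.1, per the labels, gave the deposited intensity values, which are background-subtracted signals of single spots without normalization between arrays. The authors' methods state log2 values, a shift to the 75th percentile and a shrinkage t with a false discovery rate of 0.1. The log2 values of the deposited series matrix instead matched quantile-normalized intensities centred on each probe (r = 1.00 on all arrays), and were used as an alternative.

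The intensities were analysed with limma 3.58.1 in R 4.3.3. Spots marked as outliers were left out (146 probe values), repeated spots were averaged per probe, and log2 values were shifted by the 75th percentile of their array. Tested probes were those that every array of 1 genotype or both showed as positive, significant and well above background. The moderated test of limma took the place of the shrinkage t. The share of probes well above background was 41.1% to 64.9%, and median intensity was 18.7 on Rbpj +/+_1156 and 29.6 on N3 beside 4.99 to 7.75 on the other arrays. The number of arrays limits the precision. The fit was tested on simulated probes drawn independently and without shifts between arrays, so that test does not bear on the scaling.

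All member genes and all their probes are named. From each list the genes with the largest differences among those that passed are named, with others needed to describe the list, and for 4 members the 3 nearest genes by root mean square distance. Some genes that this rule would name are not reported here, though they stay in the counts and medians. Members, lists and motifs were chosen with earlier results of these data known. Alternatives were quantile normalization, the percentile over probes detected on all arrays, normexp (offset 50), no filter on dim probes, detection on all 7 arrays, the series matrix, array weights, limma-trend, the mean over probes, a threshold of 0.05, and each animal left out. Leaving out Rbpj +/+_1156 and N3 together was added after seeing the data. The labels do not pair animals.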

Additional observations from a re-analysis of the deposited data

Results flagged for a closer look

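Among the 4 Rbpj+/+ animals, the Foxa1 probe of Rbpj +/+_1024 read 3.66 on the log2 scale. Its gap of 1.18 to the nearest of the other animals took up 0.8292 of the whole range, just past the critical value of Dixon's test. It was the only one of 11 probes to stand out in this way, and chance marks about 1 in 20 such groups.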

How the results depend on the processing

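Of the 9 members, 3 were called in the reported setting. The count was 0 by limma with no filter on dim probes, 5 with array weights and 1 at a threshold of 0.05, and the counts of member probes were the same. Leaving out 1 animal at a time gave 0 to 4 genes and 0 to 4 probes, with none called without N3 or without N5, 1 without Rbpj +/+_1155 and 1 without Rbpj +/+_1024. Of all genes 22.7% were called without N3, 19.5% without N5, 30.8% without Rbpj +/+_1155 and 22.5% without Rbpj +/+_1024. Without Rbpj +/+_1156, where 4 members were called, the share of all genes was 37.8%. Without both Rbpj +/+_1156 and N3, 2 genes were called (Prox1 and Nr5a2), beside 28.7% of all genes. At an unadjusted p below 0.05 with all animals, 4 genes passed by limma. The share of all genes at that threshold is not given here, so this count is not read further. The causes of these moves were not tested, except that animals left out leave fewer samples. Over the 18 alternatives the directions of Foxa1, Cebpa, Cebpb, Prox1 and the brighter Nr5a2 probe did not turn.

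Quantile normalization turned Hnf4a (0.0403), Foxa3 (0.0374), the dimmer Nr5a2 probe (0.0126), Apoa2 (0.0312), Fgb (0.0796) and Hp (0.0304) positive, and the series matrix did the same (0.0444, 0.0398, 0.0170, 0.0141, 0.0742 and 0.0503). The percentile over probes detected on all arrays turned Foxa3 (0.0628). Normexp turned Foxa2 (0.153), Foxa3 (0.206) and Emcn, an endothelial marker (-0.104). Array weights turned Gata4 (-0.0417), as did leaving out Rbpj +/+_1156 and N3 (-0.0844). Leaving out 1 animal gave differences that included both signs for Foxa2 (-0.269 to 0.0459), Foxa3 (-0.275 to 0.112), Gata4 (-0.0282 to 0.342) and the dimmer Nr5a2 probe (-0.479 to 0.128). Of 71 called genes of the lists, 24 lost the call when at least 1 animal was left out. Over all genes, 2741 were called higher and 3665 lower, 3116 and 2847 with quantile normalization. No paired analysis was possible because the labels give the animals no shared numbers. With 4 and 3 animals, the members that did not pass are not shown to be equal between genotypes.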
